A study of Homo sapiens with 9 samples.

Results

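Interferon-stimulated genes, genes that sense double-stranded RNA and chemokine genes were examined in VCaP, an established human prostate cancer cell line, after transfection with siRNAs against the long non-coding RNA *IGF1R-AS1*. The 53 genes were chosen by name, with earlier results of these data known, and *CXCL11* was selected on its higher level with si025 than with si033. A row was present for 52 of the 53 in the deposited tables, which list 19918 genes, and *PSMB8-AS1* was not analysed here. The siRNA dose was 100 pmol by reverse transfection with RNAiMAX, cells were collected after 72 h, and stranded libraries were made from 1.3 µg of total RNA. The 3 groups, written si025, si033 and control, held 3 libraries each. Both si025 and si033 are directed at exon 1 of *IGF1R-AS1*, and the control group, labelled wild type, received a control siRNA. All 9 libraries come from cells that received siRNA, and no untransfected or reagent-only library is among them, so each change below is relative to transfected controls. Nothing in the labels says that the libraries of a group came from separate cultures. The study describes its knockdown RNA-seq in VCaP as 3 biological replicates. The p-values measure the spread between these libraries, and how far it is technical was not tested. The level of the targeted transcript was not analysed here.

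Cells detect double-stranded RNA through cytoplasmic helicases, *IFIH1* (MDA5) and *DDX58* (RIG-I), which signal through the mitochondrial adaptor *MAVS*, and through the endosomal receptor *TLR3*. Signalling leads to interferon release, and interferon receptors activate a transcription factor complex that includes STAT2 and IRF9 and binds interferon-stimulated response elements and switches on antiviral effectors. NF-kB, activated by the same sensors, acts with it on chemokine genes. *CXCL9*, *CXCL10* and *CXCL11* encode ligands of CXCR3, a chemokine receptor of activated T cells.

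The siRNA sequences are shown because the groups differ in them. The study lists a control and 2 siRNAs against *IGF1R-AS1*, and the sources used here do not say which of siRNA-1# and siRNA-2# is si025 and which is si033, nor that the listed control is the one used in these libraries. Capitals mark the bases opposite the seed (positions 2 to 8) of the guide strand, if the listed strand is the one that matches the target.
siRNA negative control: uagcgacuaaaCACAUCAa
IGF1R-AS1-siRNA-1#: agaaagcacugAAGACCUauu
IGF1R-AS1-siRNA-2#: ccguauugcucAGUGGAAauu
The first 19 bases held 36.8% G and C in the control, 42.1% in siRNA-1# and 47.4% in siRNA-2#, and the stretches in capitals differ between all of them.

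Library totals ranged from 11649811 to 28492259 counts. The 8 VCaP markers used for the check (*KLK3*, *KLK2*, *TMPRSS2*, *FOXA1*, *HOXB13*, *KRT8*, *KRT18* and *EPCAM*) were all present, summing to 4256 to 4338 CPM (TMM-scaled counts for each 1e6 counts of a library) in control, 6207 to 6570 CPM in si025 and 3816 to 3994 CPM in si033. Leukocyte markers summed to at most 3.35 CPM in any library, and 3 of the 8 (*CD3E*, *MS4A1*, *NKG7*), which mark T, B and natural killer cells, were at 0 in all libraries. The 5 fibroblast markers summed to 16.9 to 19.2 CPM in control, 36.5 to 43.9 CPM in si025 and 8.98 to 11.1 CPM in si033, mostly *LUM*, and 3 of the 5 had under 10 counts in every library. The 5 endothelial markers stayed between 0.927 and 2.34 CPM. The fibroblast sum and the VCaP sum move with the groups, and their part in the results below was not tested. In bulk RNA, more cells carrying a transcript and more transcript per cell cannot be told apart.

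Of the 52 genes, 36 passed the filter on low counts, which requires about 0.709 CPM in at least 3 libraries, and 16 did not. *IFIT1* reached that level in all control libraries, 1 si025 library and no si033 library, and *CXCL9* in 3 control, 2 si025 and no si033 libraries, so both passed through the groups where they are high. Among the 16, *TAP1*, *HLA-E*, *CCL5* and *IFI27* had 0 counts in all 9 libraries, *HLA-B* 0 to 5 and *HLA-C* 0 to 2 counts. These values cannot be read as absence of expression. From *HLA-F* to *TAPBP* (chr6:29723340-33314387), 111 of 138 genes (80.4%) had fewer than 10 counts over all libraries together, against 24.4% of the genes on the rest of chromosome 6. Genes that dividing cells use throughout, such as *TUBB*, also stood at 0 there. Within 500 kb of *CCL5*, 19 of 28 genes were under 10 counts, *TAF15* with 0 to 2 counts per library among them, and around *IFI27* 10 of 17, with *DDX24* at 1 to 7 counts. *TUBB*, *TAF15* and *DDX24* were picked after their values were seen. *BST2*, a tetherin that holds virions at the cell surface, had 0 to 1 count while its neighbour *MVB12A* had 170 to 530. Around the other 9, most genes within 500 kb had 10 or more counts over all libraries. Their own ranges were 2 to 19 for *CXCL1*, 1 to 8 for *IFI35*, 0 to 5 for *IFI44L*, *OAS2* and *IRF7*, 2 to 13 for *IFITM1*, 0 to 6 for *IFITM2*, 0 to 2 for *OASL* and 0 to 12 for *MX2*. A count of 0 allows up to 3 counts, which is 0.104 to 0.262 CPM by library and covers counting error only.

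Of the 35 tested genes other than *CXCL11*, 17 rose and 2 fell with si025 against control at an adjusted *p* under 0.05 (edgeR quasi-likelihood test), that is 48.6% and 5.71% of them. Of all 12810 genes tested, 61.7% were called, 32.9% higher and 28.8% lower. The share of members called, 54.3%, was thus below that of all genes, while the calls were mostly upward. With si033, 12 rose and 5 fell, or 34.3% and 14.3%, where 26.9% of all genes were higher and 27.8% lower and 54.8% were called in all. Among the 5 are *CXCL9* and *IFIT1*, which passed the filter only through groups in which they are high, so their place in this count is no support for a fall. The median log2 fold change of the 35 genes was 0.33 with si025 and 0.11 with si033, beside 0.02 and 0.00 for all genes tested. Both siRNAs were set against the same controls. With both siRNAs 6 genes rose (*DHX58*, *HERC6*, *IFIT2*, *ISG15*, *PARP9*, *STAT2*), 1 fell with both (*OAS3*), 1 rose with si025 and fell with si033 (*CXCL10*), and 7 passed the test with neither (*HERC5*, *IFIT5*, *IFITM3*, *ISG20*, *MX1*, *RSAD2*, *TLR3*). A further 10 were called higher with si025 and not called with si033, and 6 the other way round. Over all genes tested, 15.1% rose with both, 14.6% fell with both and 5.39% rose with si025 and fell with si033. Another 21.6% were called with neither, 12.4% were higher with si025 only and 8.81% higher with si033 only. The 6 genes that rose with both are thus not read as particular to this list.

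**Figure D1:**
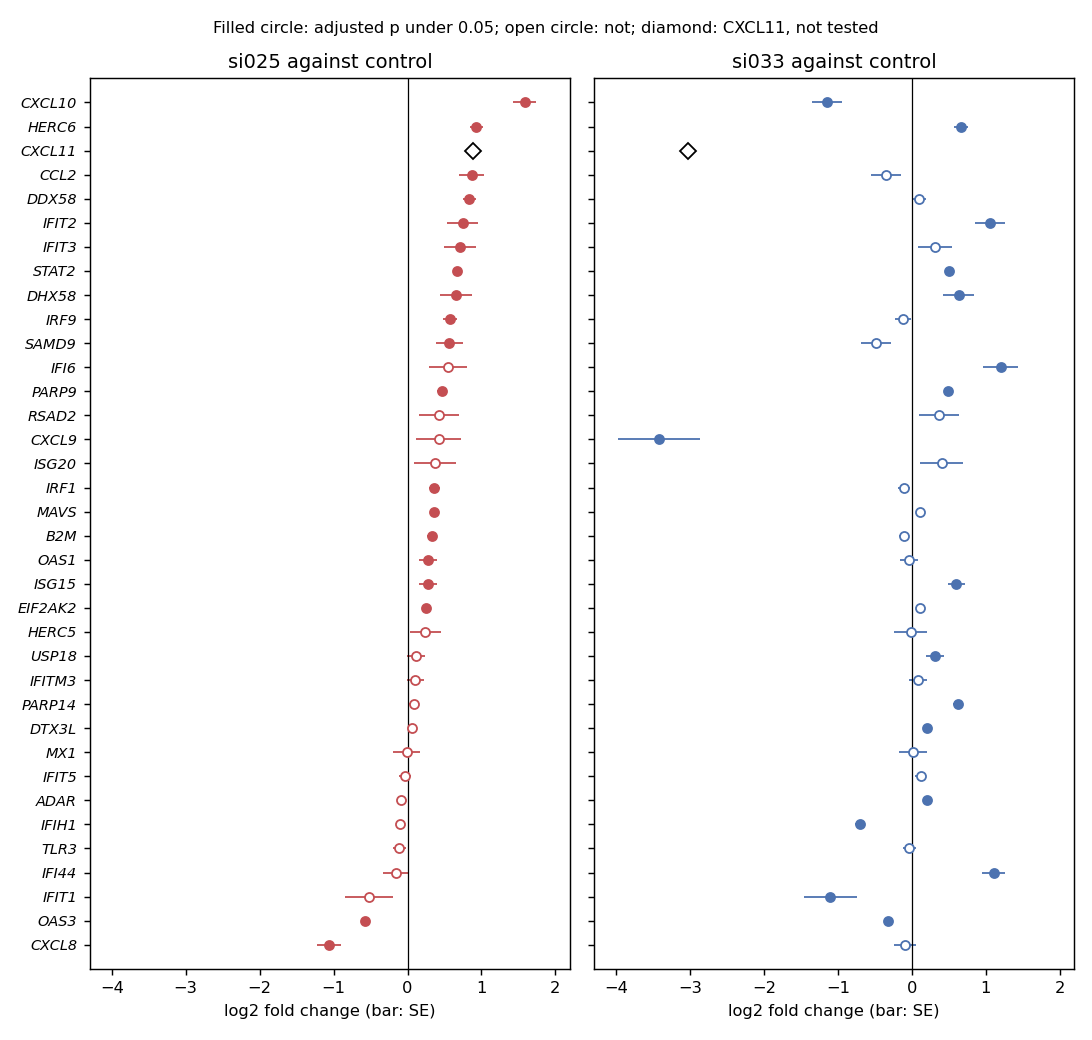
Log2 fold changes of 36 genes (rows) against control for si025 (left) and si033 (right), with bars for the standard error, filled circles for an adjusted p under 0.05 and a diamond for CXCL11, which was not tested. Most points with si025 lie between 0 and 1, and the points farthest from 0 are the low values of CXCL9 and CXCL11 with si033. CXCL9 and IFIT1 passed the filter through the groups where they are high, so their filled circles with si033 carry no weight.

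The ligands of CXCR3 are described first. *CXCL11* (chr4:76033682-76036197, minus strand) stood at 16.4, 18.2 and 19.2 CPM in the si025 libraries, 1.81, 0.928 and 1.04 CPM in si033, and 9.69, 9.50 and 10.04 CPM in control. These are 210, 366 and 435 counts, 22, 12 and 30 counts, and 111, 131 and 260 counts. The groups did not overlap, with si025 highest and si033 lowest. The fitted log2 difference was 0.88 for si025 against control, -3.03 for si033 against control and 3.91 between the siRNAs, given without a test because the gene was selected on this comparison. Per kilobase, *CXCL11* went from 6.07 ± 0.173 RPKM (SD, n = 3) in control to 11.2 ± 0.906 with si025 and 0.784 ± 0.301 with si033. On the log2 scale the distance from control was larger downward with si033 than upward with si025.

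*CXCL10*, the interferon-induced ligand next to it, had 7.55, 8.09 and 8.36 CPM with si025, 1.07, 0.851 and 1.45 CPM with si033, and 2.62, 2.68 and 2.70 CPM in control. It rose with si025 by a log2 fold change of 1.58 (SE 0.15, adjusted *p* = 4.06e-09) and fell with si033 by 1.15 (SE 0.21, adjusted *p* = 5.96e-05). The groups did not overlap. *CXCL9* had 0.623, 1.29 and 1.37 CPM with si025, 0, 0.155 and 0.0690 CPM with si033, and 0.786, 0.942 and 0.850 CPM in control. All si033 libraries lay below all others, whereas si025 and control overlapped. In counts, the 3 si033 libraries held 4 *CXCL9* reads together and the control libraries 44. Per total count, with the 3 libraries of each group pooled, the ratio was 0.0895. Because no si033 library reached the filter level, these values are given as a description, without a test. With si025 the log2 fold change was 0.42 (SE 0.30).

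**Figure D2:**
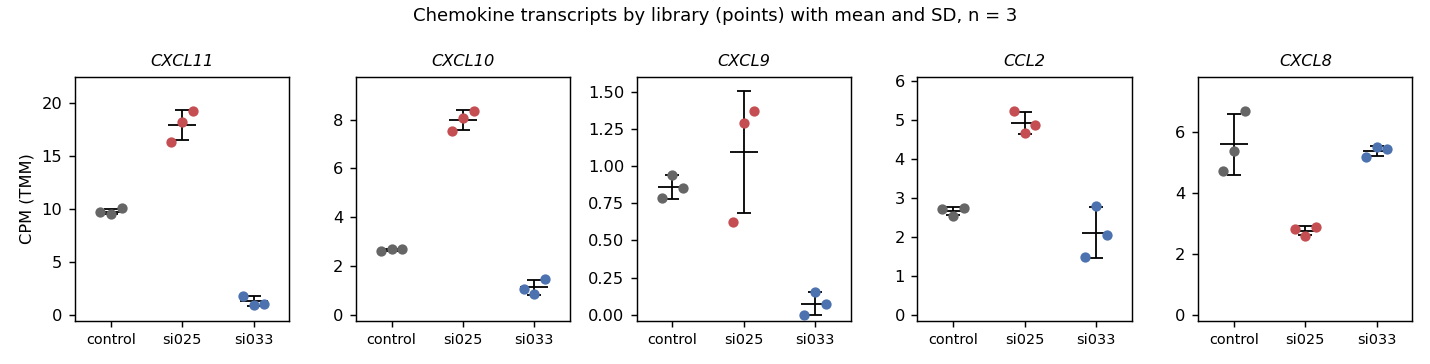
CPM of 5 chemokine genes in each library (points) with the mean and SD of 3 libraries per group (bars), each panel from 0 on its own scale. CXCL11 and CXCL10 are highest with si025 and lowest with si033, CXCL9 is near 0 with si033, CCL2 is highest with si025, and CXCL8 is lowest with si025.

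The 3 ligand genes lie within 34.9 kb of chromosome 4 (chr4:76001342-76036197, hg38) and are transcribed from the minus strand. *ART3*, an ADP-ribosyltransferase family gene, runs across *CXCL10* and *CXCL11* on the opposite strand (chr4:76011180-76112802). Its log2 fold change was -0.80 with si025 (adjusted *p* = 1.95e-05) and -4.01 with si033 (adjusted *p* = 1.39e-13), with 5 to 209 counts per library. The tables were counted by strand, and how completely the library separates strands at this locus was not tested. With si033 the next tested genes outward moved less than the 3 ligand genes and *ART3*. With si025, *NAAA*, *SCARB2* and *FAM47E* moved more than *CXCL9* (0.42). *SDAD1* changed by -0.27 and -0.30, *NAAA* by 0.54 and -0.32, *NUP54* by -0.31 and -0.45 and *SCARB2* by 0.58 and -0.12 with si025 and si033, each with an adjusted *p* of at most 0.0225. *FAM47E* rose by 0.45 and 0.90 (adjusted *p* = 0.0161 and 2.89e-05).

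The promoters of the 3 ligand genes are shown because their transcripts were lower with si033 than in the other groups, and windows of *IFIH1*, which was also lower with si033, and of *IFI44* and *IFI6*, which were higher with it, are set beside them. RefSeq promoters (GRCh38.p14, 250 bases before to 50 after the start) were matched for 42 of the 53 genes. The motifs searched, on both strands and with overlap between motifs allowed, were GAAANNGAA (core of the interferon-stimulated response element, ISRE), TTCNNNGAA (GAS, the STAT dimer site) and GGGANNTTC (a form of the NF-kB site). Sequences run 5′ to 3′ on the gene's strand, with the motif in capitals.
CXCL11 NF-kB site (chr4:76036127-76036156, minus strand): gactcaaagaGGGAAATTCctgtgccataa
CXCL10 NF-kB site (chr4:76023655-76023684, minus strand): gaggagcagaGGGAAATTCcgtaacttgga
CXCL9 NF-kB site (chr4:76007639-76007668, minus strand): aaaacatgcaGAAATTCCCttggatctgag
CXCL11 GAS (chr4:76036033-76036062, minus strand): tttctactccTTCCAAGAAgagcagcaaag
CXCL10 ISRE core (chr4:76023699-76023728, minus strand): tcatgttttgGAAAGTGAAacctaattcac
CXCL9 ISRE core (chr4:76007661-76007690, minus strand): ccatttatgtGAAATGGAAataaaaacatg
IFIH1 ISRE core (chr2:162318686-162318715, minus strand): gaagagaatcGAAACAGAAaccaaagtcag
IFI44 ISRE core (chr1:78649762-78649791, plus strand): cacactgagtTTCAGTTTCctttctctgag
IFI6 ISRE core (chr1:27672266-27672295, minus strand): gcagagtgcaGAAATAGAAactccgacagg
All 3 ligand promoters held the NF-kB form, in *CXCL9* on the opposite strand. *CXCL10* and *CXCL9* also held the ISRE core, whose letters are not in the *CXCL11* window. Over the 42 promoters, the ISRE core was present in 27 (64.3%), the GAS motif in 11 (26.2%) and the NF-kB form in 10 (23.8%). Over 35116 RefSeq promoters of the same length the shares were 8.11%, 7.66% and 4.18%. *IFIH1*, *IFI44* and *IFI6* each held the ISRE core, and *IFIH1* also held the NF-kB form, as the ligand promoters did. That form was also in *DDX58*, *B2M* and *MX1*, which were not called with si033, and in *OAS3*, which fell with both siRNAs. It was not found in *IFIT1*, whose si033 libraries lay below control, nor in *CXCL8*, which was not called with si033. Whether a motif goes with the direction of change was not tested.

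*CCL2*, a ligand that draws monocytes, had 5.22, 4.66 and 4.86 CPM with si025, 1.48, 2.79 and 2.04 CPM with si033, and 2.71, 2.54 and 2.74 CPM in control. All si025 libraries lay above the others, and si033 overlapped control. Its level rose by 0.87 on the log2 scale with si025 (SE 0.17, adjusted *p* = 0.000130), and its change with si033 was -0.35 (SE 0.20, adjusted *p* = 0.142). Without si033 replicate 2, which had the highest value of its group, that change was -0.53 with an adjusted *p* of 0.0346, and over 15 alternatives the adjusted *p* ranged from 0.0346 to 0.423. *CXCL8*, which draws neutrophils and is a classical NF-kB target, went the other way with si025. Its values were 2.80, 2.58 and 2.87 CPM with si025, 5.19, 5.49 and 5.45 CPM with si033, and 4.71, 5.36 and 6.68 CPM in control. It fell by 1.06 on the log2 scale with si025 (SE 0.16, adjusted *p* = 3.58e-06), with no overlap, and its change with si033 was -0.09 (SE 0.14, adjusted *p* = 0.606).

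Of the sensor helicases, *IFIH1* fell with si033 and *DDX58* rose with si025. *IFIH1*, the helicase that binds long double-stranded RNA, had 26.9, 28.3 and 29.1 CPM with si025, 18.6, 17.9 and 19.1 CPM with si033, and 30.9, 31.5 and 28.9 CPM in control. It fell by 0.70 on the log2 scale with si033 (SE 0.07, adjusted *p* = 6.66e-09), while its change with si025 was -0.10 (SE 0.06, adjusted *p* = 0.172). *DDX58*, the helicase that binds short double-stranded RNA with phosphorylated ends, had 19.5, 17.7 and 19.2 CPM with si025, 10.2, 11.1 and 12.0 CPM with si033, and 9.43, 10.7 and 11.05 CPM in control. It rose by 0.83 with si025 (SE 0.09, adjusted *p* = 2.05e-08), and its change with si033 was 0.10 (SE 0.09, adjusted *p* = 0.382). Between the siRNAs, si025 minus si033, the fitted log2 difference was 0.60 (SE 0.07) for *IFIH1* and 0.73 (SE 0.09) for *DDX58*.

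*DHX58* (LGP2), a helicase that lacks the signalling domain and modulates the other sensors, had 3.11, 2.68 and 2.34 CPM with si025, 1.81, 2.86 and 2.93 CPM with si033, and 1.66, 1.45 and 1.85 CPM in control. Both increases were called, 0.65 with si025 (SE 0.21, adjusted *p* = 0.0105) and 0.63 with si033 (SE 0.21, adjusted *p* = 0.0159). The si025 libraries lay above control, and si033 replicate 1 lay within it. The call with si033 was lost with DESeq2 (adjusted *p* = 0.0559), without si033 replicate 3 (0.143) and without control replicate 2 (0.0612), in a range of 0.00381 to 0.143. *TLR3*, the endosomal receptor, had 18.2, 16.6 and 20.3 CPM with si025, 17.4, 20.7 and 19.8 CPM with si033, and 17.8, 19.4 and 21.5 CPM in control. The groups overlapped, with log2 fold changes of -0.11 (SE 0.09, adjusted *p* = 0.291) and -0.04 (SE 0.09, adjusted *p* = 0.754).

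*MAVS*, the adaptor of both helicases, had 218, 191 and 206 CPM with si025, 175, 170 and 174 CPM with si033, and 161, 162 and 158 CPM in control, with no overlap between groups. It rose with si025 by 0.35 (SE 0.05, adjusted *p* = 8.56e-07), and with si033 its change was 0.11 (SE 0.05, adjusted *p* = 0.0502). The adjusted *p* with si033 ranged from 0.0162 to 0.135 and was under 0.05 in 5 of 15 alternatives, among them the fits without si025 replicate 1 (0.0357) and without si025 replicate 2 (0.0226). *EIF2AK2* (PKR), a kinase that halts translation when it binds double-stranded RNA, had 159, 160 and 171 CPM with si025, 140, 158 and 147 CPM with si033, and 136, 134 and 142 CPM in control. All si025 libraries lay above all controls, and si033 overlapped control and lay just below si025. The change with si025 was an increase of 0.25 (SE 0.05, adjusted *p* = 0.000144), and its change with si033 was 0.11 (SE 0.05, adjusted *p* = 0.0707). That *p* ranged from 0.0182 to 0.310, and was 0.0182 without si033 replicate 1 and 0.0487 without control replicate 3.

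*ADAR*, which edits adenosines in double-stranded RNA and so keeps it from the sensors, had 827, 754 and 783 CPM with si025, 965, 951 and 967 CPM with si033, and 822, 847 and 841 CPM in control. It rose with si033 by 0.20 (SE 0.04, adjusted *p* = 0.000181) without overlap. With si025 its change was -0.09 (SE 0.04, adjusted *p* = 0.0624), with an adjusted *p* of 0.0122 without si025 replicate 1 and a range of 0.0122 to 0.222 over the alternatives. Between the siRNAs the fitted difference was -0.29 (SE 0.04).

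**Figure D3:**
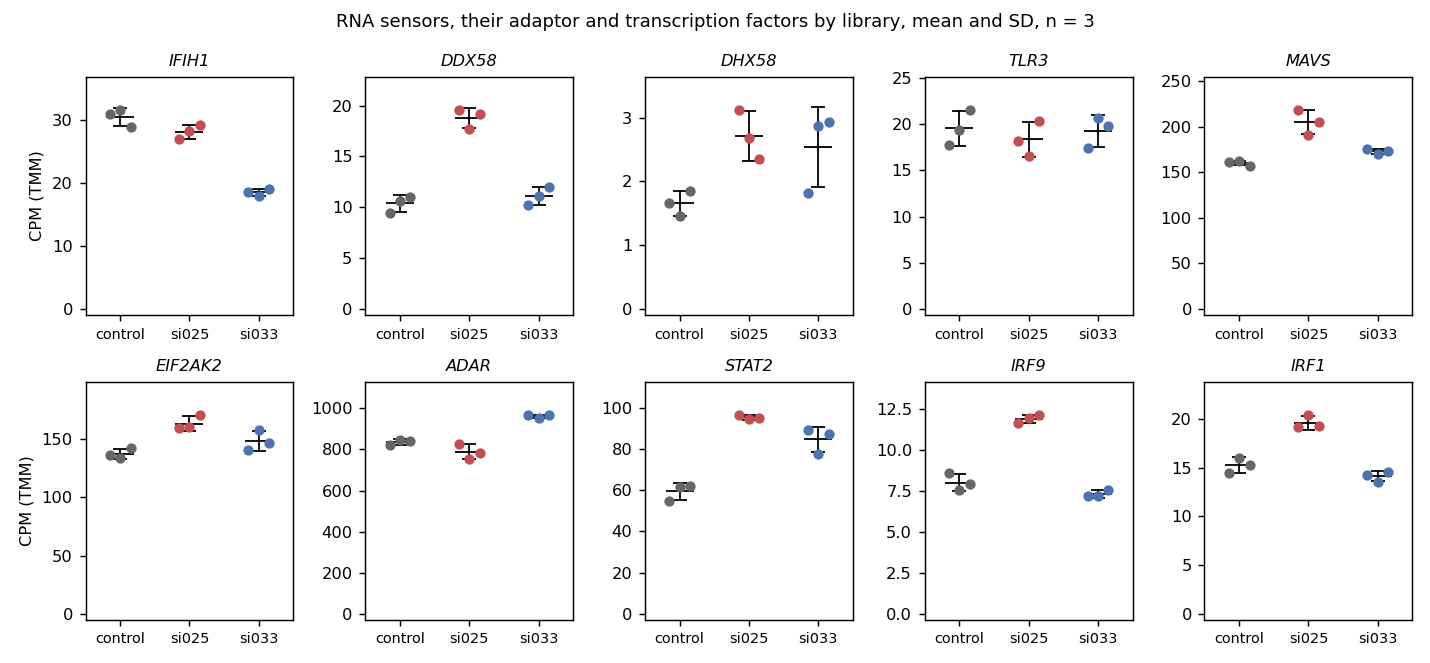
CPM of 10 genes of RNA sensing and interferon signalling in each library (points) with the mean and SD of 3 libraries per group (bars), each panel from 0 on its own scale. IFIH1 is lowest with si033, DDX58, IRF9 and IRF1 are highest with si025, ADAR is highest with si033, STAT2 is above control with both, and TLR3 overlaps in all groups.

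Of the transcription factors, *STAT2*, a transducer of type I and lambda interferon signals, rose with both siRNAs. It had 96.5, 94.4 and 95.2 CPM with si025, 89.1, 77.6 and 87.3 CPM with si033, and 54.6, 61.8 and 61.9 CPM in control. The log2 fold changes were 0.67 (SE 0.06, adjusted *p* = 7.32e-10) and 0.51 (SE 0.06, adjusted *p* = 1.44e-07), and all libraries of both siRNAs lay above all controls. *IRF9*, the DNA-binding part of the same complex, had 11.6, 11.9 and 12.1 CPM with si025, 7.17, 7.20 and 7.56 CPM with si033, and 8.55, 7.54 and 7.92 CPM in control. An increase of 0.58 was called with si025 (SE 0.10, adjusted *p* = 2.25e-05), and its change with si033 was -0.12 (SE 0.11, adjusted *p* = 0.372). Against si033, si025 was 0.69 higher (SE 0.10).

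*IRF1*, induced by interferon gamma and by NF-kB, had 19.2, 20.4 and 19.2 CPM with si025, 14.3, 13.5 and 14.5 CPM with si033, and 14.4, 16.02 and 15.3 CPM in control. The si025 increase was 0.36 (SE 0.07, adjusted *p* = 0.000189), and its change with si033 was -0.11 (SE 0.08, adjusted *p* = 0.255). Against si033, si025 was 0.47 higher (SE 0.07). *IRF7*, which amplifies the interferon loop, had at most 0.387 CPM in any library and was not tested.

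Among the antiviral effectors, calls went in both directions. *HERC6*, a ubiquitin ligase family member, had 18.5, 17.0 and 20.2 CPM with si025, 14.3, 16.1 and 15.98 CPM with si033, and 9.34, 10.003 and 9.89 CPM in control. It rose by 0.93 (SE 0.09, adjusted *p* = 4.48e-09) and 0.67 (SE 0.09, adjusted *p* = 1.78e-06), with both groups wholly above control. *PARP9*, which works with the ubiquitin ligase DTX3L, rose by 0.46 and 0.49 (SE 0.06 each, adjusted *p* = 2.88e-07 and 1.85e-07). *DTX3L* itself and *PARP14* were called with si033, by 0.21 (SE 0.06, adjusted *p* = 0.00539) and 0.62 (SE 0.07, adjusted *p* = 9.91e-08), and changed by 0.07 and 0.09 with si025 (adjusted *p* = 0.343 and 0.317).

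The IFIT family, whose proteins bind viral RNA, had members that rose with 1 or both siRNAs. *IFIT2* had 3.04, 2.33 and 2.92 CPM with si025, 2.88, 3.09 and 3.90 CPM with si033, and 1.40, 2.102 and 1.47 CPM in control. It rose by 0.74 (SE 0.21, adjusted *p* = 0.00425) and 1.06 (SE 0.21, adjusted *p* = 0.000153), without overlap with control. *IFIT3* had 2.103, 2.18 and 1.99 CPM with si025, 1.73, 1.55 and 1.52 CPM with si033, and 0.960, 1.09 and 1.55 CPM in control. It rose with si025 by 0.71 (SE 0.22, adjusted *p* = 0.00736), and its change with si033 was 0.31 (SE 0.23, adjusted *p* = 0.305). *IFIT1*, the founding member, had 1.09, 0.397 and 0.663 CPM with si025, 0.577, 0.309 and 0.449 CPM with si033, and 0.960, 1.09 and 0.888 CPM in control. All si033 libraries lay below control, while si025 overlapped it. The fitted log2 fold change was -1.10 with si033 (SE 0.36) and -0.52 with si025 (SE 0.33), given without a test because the gene passed the filter through its control libraries. *IFIT5* changed by -0.03 and 0.12, with adjusted *p* of 0.744 and 0.213. Reads that match several genes were not counted, and how far this lowers the IFIT values was not tested.

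*IFI6* and *IFI44* rose with si033. *IFI6*, a small protein that protects against apoptosis, had 1.40, 1.24 and 1.19 CPM with si025, 1.65, 1.93 and 2.21 CPM with si033, and 0.873, 0.870 and 0.850 CPM in control. Its log2 fold change was 1.20 with si033 (SE 0.24, adjusted *p* = 0.000147) and 0.55 with si025 (SE 0.25, adjusted *p* = 0.0705). *IFI44* had 2.73, 2.83 and 2.79 CPM with si025, 6.18, 7.35 and 6.63 CPM with si033, and 2.88, 3.77 and 2.82 CPM in control. It rose by 1.11 with si033 (SE 0.15, adjusted *p* = 1.49e-06), and its change with si025 was -0.16 (SE 0.17, adjusted *p* = 0.433). Subtracting si033 from si025 gave -1.27 (SE 0.15) for *IFI44* and -0.66 (SE 0.21) for *IFI6*, the opposite sign to that of the CXCR3 ligands.

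*ISG15*, a ubiquitin-like protein, rose by 0.60 with si033 (SE 0.12, adjusted *p* = 0.000111) and by 0.28 with si025 (SE 0.12, adjusted *p* = 0.0435). The second call was lost in 10 of 15 alternatives, with adjusted *p* from 0.0163 to 0.186, among them the fits without si025 replicate 1 (0.0605), 2 (0.0917) or 3 (0.0746), without si033 replicate 3 (0.0507) and without control replicate 1 (0.130) or 3 (0.186). *USP18*, the protease that removes ISG15, rose by 0.31 with si033 (SE 0.12, adjusted *p* = 0.0325) and changed by 0.11 with si025 (adjusted *p* = 0.438). The *USP18* call was lost in 5 of 15 alternatives (range 0.0202 to 0.164), including those without si033 replicate 1 (0.0508) or 3 (0.164) and without control replicate 1 (0.0703) or 2 (0.112).

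The oligoadenylate synthetases activate RNase L when they bind double-stranded RNA. *OAS3* fell with both siRNAs, from 94.6 to 104 CPM in control to 64.4 to 69.8 CPM with si025 and 77.8 to 79.6 CPM with si033. On the log2 scale these are changes of -0.58 (SE 0.05, adjusted *p* = 1.12e-09) and -0.33 (SE 0.05, adjusted *p* = 7.48e-06). *OAS1* rose by 0.28 with si025 (SE 0.12, adjusted *p* = 0.0433) and changed by -0.04 with si033 (adjusted *p* = 0.802). The *OAS1* call was lost in 7 of 15 alternatives (range 0.0299 to 0.119), including the fit with a replicate block (0.0511) and those without si025 replicate 1 (0.119) or 3 (0.0929) and without control replicate 1 (0.109) or 2 (0.116).

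*SAMD9*, an antiviral factor, rose by 0.57 with si025 (SE 0.18, adjusted *p* = 0.00993) and changed by -0.49 with si033 (SE 0.21, adjusted *p* = 0.0515). The si025 call was lost without si025 replicate 3 (0.0834) and without control replicate 1 (0.0571), in a range of 0.00302 to 0.0834. With si033 the *p* ranged from 0.0160 to 0.219. It was under 0.05 in 7 of 15 alternatives, among them the fit with a replicate block (0.0434) and those without si025 replicate 1 (0.0475) or 3 (0.0497), without si033 replicate 1 (0.04999) and without control replicate 1 (0.0160). *B2M*, the light chain of MHC class I, rose by 0.33 with si025 (SE 0.07, adjusted *p* = 0.000157) and changed by -0.11 with si033 (SE 0.07, adjusted *p* = 0.194). The GTPase *MX1* (-0.01 and 0.02), the radical SAM enzyme *RSAD2* (0.43 and 0.36), *HERC5*, the ISG15 ligase (0.24 and -0.02), the exonuclease *ISG20* (0.37 and 0.41) and the membrane protein *IFITM3* (0.11 and 0.08) had adjusted *p* between 0.175 and 0.960. With SE of 0.12 to 0.29, these values were not told apart from 0, and the reason was not tested.

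Compared per kilobase in control, *ADAR* was by far the most abundant of the tested genes at 115 ± 1.79 RPKM (SD, n = 3), followed by *B2M* at 21.1 ± 2.06 and *OAS3* at 14.9 ± 0.713. *MAVS* at 13.6 ± 0.212 and *EIF2AK2* at 13.3 ± 0.431 did not differ beyond their spread. *IFIH1* stood at 8.46 ± 0.383 RPKM, *CXCL11* at 6.07, *TLR3* at 3.84 ± 0.366 and *DDX58* at 2.18 ± 0.178. The lowest were *IFIT1* (0.207 ± 0.0213), *ISG20* (0.214 ± 0.0919) and *RSAD2* (0.222 ± 0.0461), which overlapped. With si033, *CXCL11* fell to the range of *CXCL10* (0.924 ± 0.249 RPKM).

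**Figure D4:**
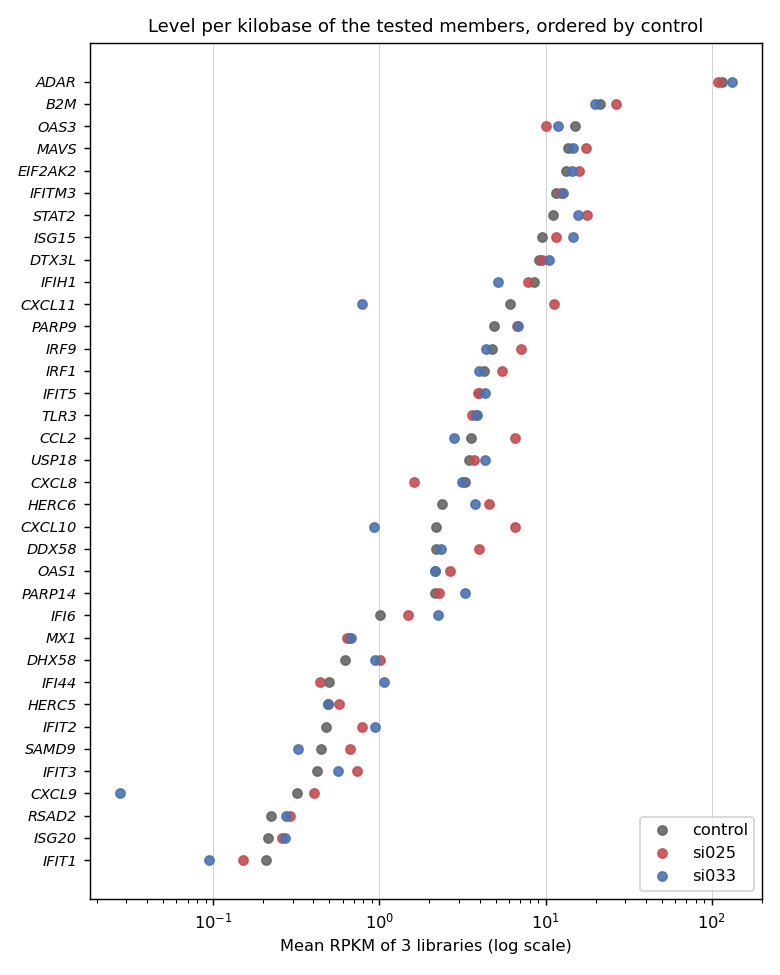
Mean RPKM of 3 libraries per group on a log axis for 36 genes, ordered by control level. The largest gaps between groups are those of CXCL11 (6.07, 11.2 and 0.784 RPKM in control, si025 and si033), CXCL10 and CXCL9.

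The rest of the pathway was read from lists that exclude the 53 genes. Their counts are set beside the shares of all genes tested, which were 32.9% higher and 28.8% lower with si025 (median log2 fold change 0.02) and 26.9% higher and 27.8% lower with si033 (median 0.00). No interferon gene was tested, and 9 ligand genes (*IFNA1*, *IFNB1*, *IFNE*, *IFNK*, *IFNW1*, *IFNG*, *IFNL1*, *IFNL2*, *IFNL3*) had 0 counts in all libraries, which allows up to 3 counts per library, and whether the regions around them are counted normally was not tested. Of the 6 receptor genes, 4 rose with si025 (66.7%, where 32.9% of all genes rose) and none fell, and with si033 1 rose (16.7%) and 2 fell (33.3%, where 27.8% of all genes fell). Their median log2 fold changes were 0.39 and -0.12. *IL10RB*, a subunit shared by the receptors of lambda interferons and interleukin 10, rose by 0.47 with si025 (SE 0.07, adjusted *p* = 1.37e-06), and its change with si033 was -0.16 (adjusted *p* = 0.0553). That *p* ranged from 0.0214 to 0.494 and was under 0.05 without si025 replicate 2 (0.0488), si033 replicate 1 (0.0434) or si033 replicate 2 (0.0214). *IFNLR1*, the specific subunit for lambda interferons, rose by 0.63 (SE 0.14, adjusted *p* = 0.000637) and 0.45 (SE 0.15, adjusted *p* = 0.0127). The second was 0.0503 without si033 replicate 1, the end of its range of 0.00875 to 0.0503. *IFNAR2*, of the type I receptor, fell by 0.17 with si033 (SE 0.06, adjusted *p* = 0.0165), a call lost without si033 replicate 2 (0.0518) and without control replicate 1 (0.0707), in a range of 0.0123 to 0.0707.

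Of 17 tested genes of JAK-STAT signalling, 11 rose (64.7%, against 32.9% of all genes) and 3 fell (17.6%, against 28.8%) with si025, with a median log2 fold change of 0.50. With si033, 7 rose (41.2%, against 26.9%) and 4 fell (23.5%, against 27.8%), with a median of 0.07. The cytokine signalling inhibitor *SOCS2* rose by 1.55 with si025 (SE 0.10, adjusted *p* = 1.02e-11), and the phosphatase *PTPN6* by 0.52 with si033 (SE 0.08, adjusted *p* = 7.45e-06). The related inhibitors *SOCS3*, with a fitted log2 fold change of 1.20 with si025 (SE 0.35), and *SOCS1*, with 1.02 with si033 (SE 0.28), reached the filter level in 0 and 2 control libraries and in all 3 libraries of the named siRNA. They passed through the groups where they are high, so their values are a description and their places in the counts are no support. Of 21 sensing adaptors and kinases, 8 rose (38.1%) and 4 fell (19%) with si025, with a median of 0.16, and 5 rose (23.8%) and 4 fell (19%) with si033, with a median of 0.11. *MYD88*, the Toll-like receptor adaptor, rose by 1.20 (SE 0.07, adjusted *p* = 4.68e-13) and *TMEM173* (STING) by 1.10 (SE 0.20, adjusted *p* = 6.85e-05) with si025, and the RIG-I ubiquitin ligase *RNF135* by 0.69 (SE 0.08, adjusted *p* = 1.19e-07) and *IRF5* by 0.62 (SE 0.11, adjusted *p* = 3.06e-05) with si033.

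Of 18 NF-kB pathway genes, 4 rose and 4 fell with si025 (22.2% each), with a median log2 fold change of 0.07. With si033, 3 rose (16.7%) and 6 fell (33.3%), with a median of -0.07. The list as a whole was called in 44.4% and 50%, below the 61.7% and 54.8% of all genes. The 2 genes named for the largest changes both rose with si025 and fell with si033, which others of the list did not. With si033, *TRAF1* rose by 0.48 (SE 0.10, adjusted *p* = 0.00031) and *TNFAIP3* by 0.43 (SE 0.17, adjusted *p* = 0.0376). *NFKBIA* changed by 0.001 with si025 and -0.04 with si033. The adhesion molecule *ICAM1* changed by 1.24 (SE 0.13, adjusted *p* = 2.84e-08) and -0.86 (SE 0.17, adjusted *p* = 0.000132). The apoptosis inhibitor *BIRC3* changed by 0.56 (SE 0.07, adjusted *p* = 2.78e-07) and -0.81 (SE 0.08, adjusted *p* = 9.67e-09). Of 4 tested genes among other chemokines and receptors, 1 rose and 2 fell with si025 and 2 rose with si033, with medians of -0.12 and 0.11. *ACKR3*, a scavenging receptor for CXCL11 and CXCL12, fell by 0.94 with si025 (SE 0.08, adjusted *p* = 7.58e-10) and rose by 0.19 with si033 (SE 0.07, adjusted *p* = 0.0304). The latter call was lost with DESeq2 (0.0825), without si033 replicate 2 (0.109) and without control replicate 1 (0.0688) or 2 (0.0545), in a range of 0.0140 to 0.109. *CXCL16* rose by 0.49 with si025 (SE 0.07, adjusted *p* = 2.45e-06) and changed by -0.15 with si033 (adjusted *p* = 0.104), and *CCL28* rose by 0.52 with si033 (SE 0.07, adjusted *p* = 2.69e-06).

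Of 10 antigen presentation genes tested, 2 rose (20%) and 3 fell (30%) with si025 and 4 fell (40%) with si033, with medians of 0.08 and -0.12. The chaperone *CANX* fell by 0.53 with si025 (SE 0.04, adjusted *p* = 3.81e-11). *NLRC5*, the activator of MHC class I genes, had a mean of 0.498 CPM in control and 1.73 CPM with si025. It reached the filter level in the 3 si025 libraries and in no other, so its difference is a description with no test. With si033 the peptide-trimming *ERAP1* fell by 0.77 (SE 0.07, adjusted *p* = 4.45e-09) and *CALR* by 0.59 (SE 0.04, adjusted *p* = 2.39e-11). Of 32 further interferon-stimulated genes, 20 rose (62.5%, against 32.9% of all genes) and 4 fell (12.5%, against 28.8%) with si025, with a median log2 fold change of 0.37. With si033, 15 rose (46.9%, against 26.9%) and 4 fell (12.5%, against 27.8%), with a median of 0.28. *UBE2L6*, the conjugating enzyme for ISG15, rose by 1.70 (SE 0.11, adjusted *p* = 7.82e-12) and 1.20 (SE 0.12, adjusted *p* = 9.77e-09). The fitted log2 fold change of *GBP3* was 1.59 with si025 (SE 0.33) and that of *LAMP3* 1.62 with si033 (SE 0.27), both from under 1 CPM in control. *GBP3* reached the filter level in no control library and *LAMP3* in 1, so both passed through the groups where they are high and are given without a test. The calls of *NLRC5*, *GBP3* and *LAMP3* are in the counts above but are no support for them.

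Set directly against each other, si025 and si033 gave calls in 22 of the 35 genes, 14 higher and 8 lower with si025. Of all genes 60.9% were called, 31.2% higher and 29.7% lower. Nothing is read from these counts, because *CXCL11* was selected on this comparison and the list was written with it in view. The fitted log2 differences, si025 minus si033, were 2.73 (SE 0.17) for *CXCL10*, 3.84 (SE 0.51) for *CXCL9*, which rests on 4 reads with si033, and 1.22 (SE 0.18) for *CCL2*, against -0.97 (SE 0.16) for *CXCL8*. *SAMD9* (1.05, SE 0.19), *B2M* (0.43, SE 0.07) and *OAS1* (0.32, SE 0.12) were also on the side of si025. *PARP14* (-0.54, SE 0.07), *ISG15* (-0.33, SE 0.11) and *OAS3* (-0.25, SE 0.05) were on the side of si033. *PARP9* (-0.03, SE 0.06) and *DHX58* (0.02, SE 0.20) lay near 0.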

How the data were processed

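The deposited tables of 9 total RNA libraries of VCaP cells were analysed, 3 each for si025, si033 and control, grouped by title. Per the file headers, the authors made the deposited counts with featureCounts 1.5.2, as raw read pairs per gene over exons of a RefSeq hg38 annotation, on the reverse strand. Read pairs that map to several places were not counted, which can lower genes with near-identical relatives. How far it lowers the IFIT and IFITM families was not tested. The submitters' processing notes name HISAT2 2.1.0. The labels name a Promega extraction kit and the methods of the study a Qiagen kit and GENCODE.

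Genes were filtered with filterByExpr (minimum count 10) and tested with the quasi-likelihood test of edgeR 4.0.16 (R 4.3.3) with TMM scaling, all 9 libraries in 1 fit, and Benjamini-Hochberg adjustment over 12810 genes. The standard error is the log2 fold change divided by the square root of F. RPKM are CPM per kilobase of counted exons. Within groups, chi-square per degree of freedom between libraries was 1.72 to 5.09, so none was counted as a copy. The test was first run on simulated counts.

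The members and lists were chosen with earlier results of these data known, so lists are described by counts and medians beside all genes, and no p-value is given for members between si025 and si033. Values in every library are given for *CXCL11*, for the called members with the 8 largest changes in each contrast with control, for the sensors and for the transcription factors. From each list, the 2 called genes with the largest change per contrast are named. *TRAF1*, *TNFAIP3* and *NFKBIA* of the NF-kB list were added after their values were seen. Some genes of the lists are not reported here and were left out of their counts. Genes around the chemokine cluster and other regions were added after their values were seen. Same-numbered libraries deviated together with correlations of only -0.0214 to 0.0729, so numbers were not treated as pairs. Alternatives were RLE and upper quartile scaling, DESeq2 1.42.0, no filter, only the 2 groups compared, a replicate block, and leaving out each library. For the lists they were added after seeing the data.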

Additional observations from a re-analysis of the deposited data

Results flagged for a closer look

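For some of the genes named among the members and the pathway lists, all libraries of one siRNA lay above all controls and all libraries of the other lay below them. The share of all genes with this arrangement of libraries was not counted, and the list genes were named for their large changes. Opposite calls, a different measure, were not rare, since 5.39% of all 12810 genes tested were called up with si025 but down with si033. The reverse held for 3.01%. The genes with this arrangement are not read as particular to these lists. *CXCL11* changed by 0.88 with si025 and -3.03 with si033 and *CXCL10* by 1.58 and -1.15 on the log2 scale against control. For these 2 genes no test of the difference between the siRNAs is given, since *CXCL11* was selected on that comparison and *CXCL10* belongs to the same list.

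The others are given in the same way, as fitted log2 fold changes with si025 and si033. Since they were picked out by lying on opposite sides of control, the difference between the siRNAs was not tested for them. *ICAM1* changed by 1.24 and -0.86 and *BIRC3* by 0.56 and -0.81. *IL10RB* changed by 0.47 and -0.16, *IFNAR2* by 0.36 and -0.17 and *CXCL16* by 0.49 and -0.15. The signs were the other way round for *ACKR3*, with -0.94 and 0.19, and *CCL28*, with -0.30 and 0.52. The si033 changes of *IL10RB* (adjusted p = 0.0553) and *CXCL16* (adjusted p = 0.104) were not called in the edgeR fit against control.

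The same arrangement, with si025 above and si033 below control, was seen in some marker genes, which are named here because they have it. Of the 8 VCaP markers, 7 were called higher and 0 lower with si025. With si033, 3 of the 8 were called higher and 3 lower, with a median log2 fold change of 0.0045. *KLK2* changed by 0.85 and -0.26, *FOXA1* by 0.23 and -0.32, *KRT18* by 0.15 and -0.66 and *LUM* by 1.26 and -0.88.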

How the results depend on the processing

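Over 15 alternatives, 6 of them other settings and 9 leaving out a library, between 16 and 19 of the 35 tested members were called with si025, 14 to 19 with si033 and 18 to 22 between the siRNAs. DESeq2 called 18, 14 and 20. Nothing is read from any count between the siRNAs in this section, because *CXCL11* was selected on that comparison. The replicate numbers of the titles did not pair the libraries, and with a replicate block 18, 19 and 22 members were called. The block took the si025 call from *OAS1* (adjusted p = 0.0511) and gave si033 calls to *MAVS* (0.0438) and *SAMD9* (0.0434). Leaving out a library, 1 to 4 of the 6 interferon receptor genes were called with si033, 1 of them without control replicate 1. Of the 4 other chemokine and receptor genes, 1 to 2 were, and 1 with DESeq2.

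Changes of sign were seen in genes that did not pass the test. *MX1* with si025 became 0.0097 under upper quartile scaling and *HERC5* with si033 0.013. *IFITM3* between the siRNAs became -0.00027 with DESeq2, and *LAMP3* with si025 became -0.0040 under RLE scaling and -0.0066 with only the 2 groups. When a library was left out, log2 fold changes with si025 ranged from -0.0955 to 0.0309 for *IFIT5*, -0.15 to 0.21 for *MX1* and -0.26 to 0.28 for *LAMP3*. With si033 they ranged from -0.18 to 0.10 for *CXCL8*, -0.0793 to 0.0629 for *TLR3*, -0.111 to 0.0768 for *OAS1*, -0.11 to 0.25 for *MX1*, -0.130 to 0.0793 for *HERC5* and -0.157 to 0.0126 for *SOCS2*. Between the siRNAs they ranged from -0.255 to 0.159 for *ISG20*, -0.104 to 0.0853 for *IFITM3*, -0.135 to 0.180 for *DHX58*, -0.165 to 0.0055 for *TLR3*, -0.111 to 0.0734 for *MX1* and -0.0607 to 0.227 for *RSAD2*. Depth limits the low genes. *IFIT1*, *IFIT3*, *IFI6*, *CXCL9*, *RSAD2* and *ISG20* held few reads per library, and genes in regions with few counts are not read here.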
